A study of Mus musculus with 12 samples.

Results

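Lysosomal hydrolases and lysosomal membrane proteins are described here in mouse dendritic cells grown from marrow, together with the transcription factors that control their genes. The set was given as a list of 36 genes without the cathepsins, and a gene was represented by its probe set of highest mean signal. Of these, 35 had a probe set of their own and all 35 passed the filter on low signals, among 12442 genes tested in the whole series. Cd63 was not analysed here. The 35 genes were 7 membrane proteins, 10 glycosidases, 4 sulfatases, 7 genes of lipid breakdown, 2 enzymes that act on proteins, 2 acid phosphatases and 3 transcription factors.

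Messenger RNA was measured on 12 single-colour Affymetrix arrays, 1 for each culture. Marrow of BALB/c and BL6 mice aged 6 to 8 weeks was cultured with the growth factor GM-CSF (20 ng/ml) for 10 days, without retinoid (control), with all-trans-retinoic acid (RA, labelled 10 nmol/ml) or with a compound titled Ro in the labels (100 nmol/ml), each with or without LPS (1 ug/ml). RA activates retinoic acid receptors, Ro is an antagonist of their alpha form, and LPS is a bacterial cell wall component that makes dendritic cells mature. The retinoids were present from the start of culture, and a separate time of LPS exposure was not given. Each of the 6 conditions had 1 BALB/c and 1 BL6 array, so strain was fitted as a block, and strain cannot be told apart from anything else that the replicate numbers share. Nothing says whether the cultures came from separate animals, so the p-values reflect only how far these arrays differ among themselves.

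Lysosomes are the acidic compartment in which cells break down what they take up and what they recycle. Their enzymes are soluble hydrolases, each cutting a particular bond of sugars, sulfate esters, lipids or proteins, and the membrane proteins protect the compartment, move its products out and release its ions. The factors TFEB, TFE3 and MITF bind an E-box motif in promoters of many lysosomal genes, and TFEB and TFE3 are held in the cytoplasm by the kinase complex mTORC1 when nutrients are plentiful. In dendritic cells the lysosome also prepares antigen for display on MHC class II.

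The E-box motif was searched for in the RefSeq promoters (build GRCm38.p6, 250 bases before to 50 after the start) of the 33 tested members that had one. The full CLEAR palindrome, the motif named for coordinated lysosomal expression and regulation, lay in the promoter of 1 member, Cln3, against 0.37% of 27025 genes. Its core TCACGTGA lay in 3 members (Cln3, Gla and Mcoln1) against 1.12% of genes. The E-box CACGTG, which both longer motifs contain, lay in 9 members (Arsa, Cln3, Gaa, Gla, Glb1, Lamp1, Mcoln1, Naglu and Sgsh) against 8.09% of genes. All 3 motifs are palindromes, so a match is on both strands. The stretches that hold the core are shown because these 3 genes encode a membrane protein, an ion channel and a hydrolase whose signals are followed in the results. Capitals mark TCACGTGA, and each stretch reads 5′ to 3′ on the strand of the gene.
Cln3, chr7:126583269-126583418, minus strand: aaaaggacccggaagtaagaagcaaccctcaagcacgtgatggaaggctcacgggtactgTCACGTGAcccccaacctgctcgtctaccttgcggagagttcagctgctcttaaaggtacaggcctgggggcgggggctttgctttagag
Mcoln1, chr8:3500413-3500518, plus strand: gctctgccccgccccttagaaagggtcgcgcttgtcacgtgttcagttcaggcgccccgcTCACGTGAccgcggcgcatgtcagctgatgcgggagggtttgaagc
Gla, chrX:134601106-134601255, minus strand: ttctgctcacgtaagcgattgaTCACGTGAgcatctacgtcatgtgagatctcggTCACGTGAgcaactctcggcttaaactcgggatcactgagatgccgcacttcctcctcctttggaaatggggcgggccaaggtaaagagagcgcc
In Cln3 the match began 122 bases before the start, in Mcoln1 46 bases before it, and Gla held 2 matches, 228 and 195 bases before the start. A match is a description of letters and not a measured binding site.

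Signals in the text are quantile-normalized intensities, and changes are log2 differences of signal + 16 with the standard error of the limma model. Adding 16 understates changes of dim genes. A gene "rose" or "fell" where its limma p-value, adjusted over all 12442 genes, was under 0.05. The signal of 29.25, the common array median, is called background. The array medians of the deposited values ran from 21.32 to 41.7. Of the dendritic cell markers, Itgax, H2-Ab1 and Cd74 were above background on 12 of 12 arrays, Zbtb46 on 11 and Flt3 on 9. The median change of all genes was near 0 at quantile normalization, but -0.41 with LPS and 0.23 with Ro at the deposited scaling.

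**Figure D1:**
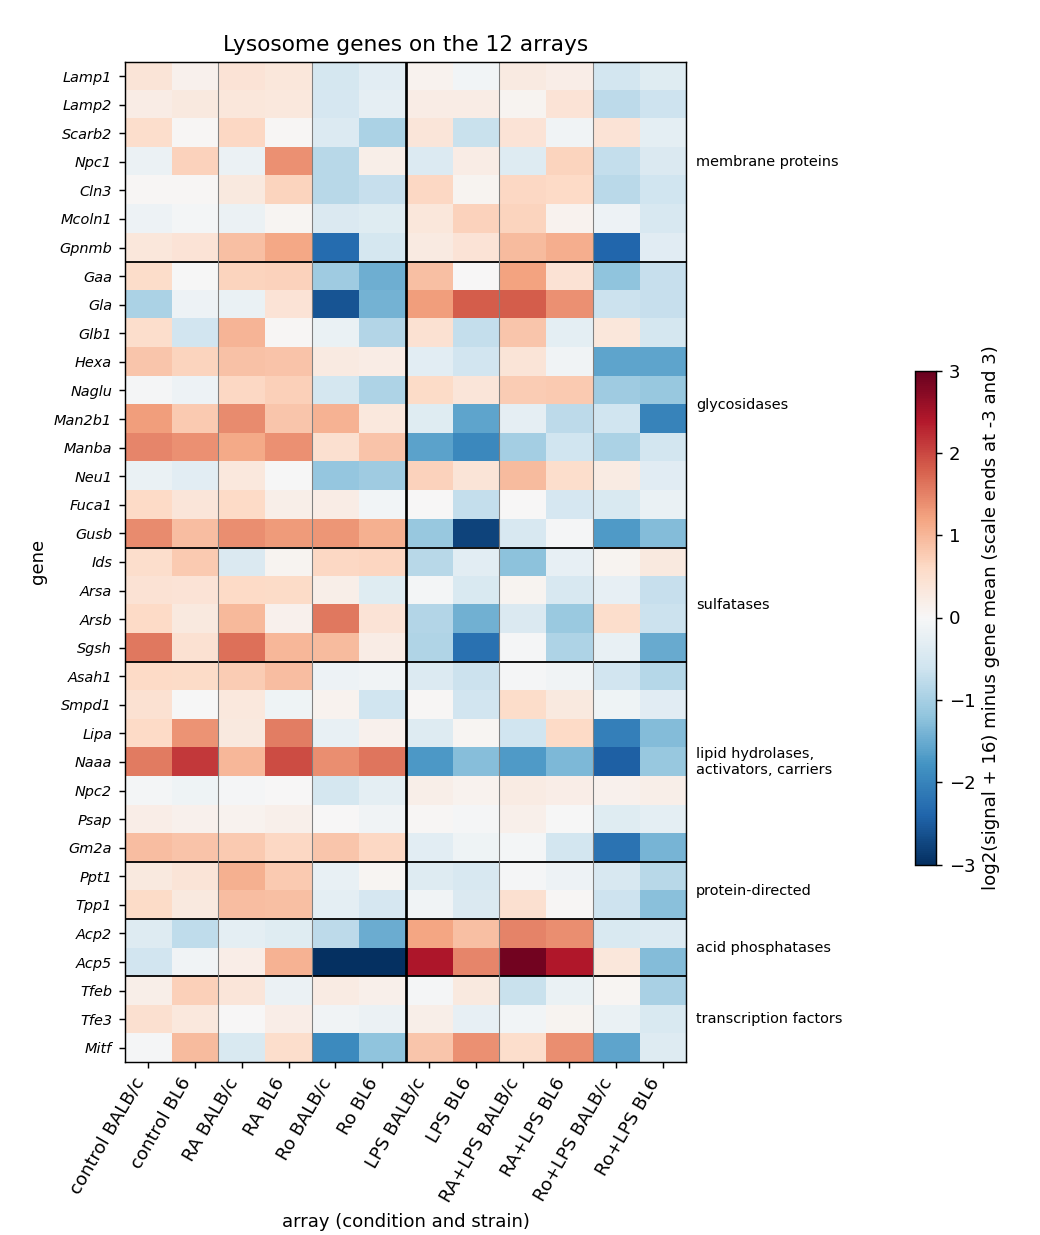
Log2 signal of the 35 members on the 12 arrays, each row centred on its own mean and rows grouped by the role of the protein, with the colour bar in log2 units. The columns with LPS hold the lowest values of Naaa, Gusb, Manba, Sgsh and Man2b1, and the columns with Ro hold the lowest values of Gaa and Lamp1. For Mitf the columns with Ro are the lowest of the same strain and LPS state.

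The first comparison asked which lysosomal genes LPS changed, over 6 arrays with LPS and 6 without. LPS split the set: 6 members rose and 16 fell, against 24.4% of all tested genes that rose and 28.7% that fell, so 17.1% and 45.7% of the members. The members' median change was -0.24 and that of all genes -0.01. The falls lay among soluble hydrolases and their activators, with 5 of 10 glycosidases, 4 of 4 sulfatases, 5 of 7 genes of lipid breakdown and both enzymes that act on proteins. None of the 7 membrane proteins passed the threshold in either direction. The rises were both acid phosphatases, the glycosidases Gla and Neu1, the cholesterol carrier Npc2 and the factor Mitf. At the deposited scaling 5 members rose and 20 fell, against 11% and 47.8% of all genes, and 18.7% of all genes called were higher, against 45.9% at quantile normalization.

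Naaa, the acid amidase that breaks down N-acylethanolamines such as palmitoylethanolamide, had the largest fall. Its 6 LPS arrays ran from 237 to 613 (median 469.6) and the 6 arrays without LPS from 2742 to 6040.2 (median 4151), so the groups did not overlap. Naaa fell by 3.21 ± 0.15 log2 units, or 9.28-fold (adjusted p = 9.46e-08), in 6 of 6 pairs of arrays that shared strain and retinoid. Gusb, the beta-glucuronidase that trims glycosaminoglycans, was next. Its 6 LPS arrays ran from 184 to 1316 (median 573) and the 6 arrays without LPS from 2602 to 3624 (median 3356). The change of Gusb was -2.47 ± 0.29, adjusted p = 4.4e-05, and the lowest signal was that of BL6 with LPS alone.

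The Manba signal in BALB/c and BL6, in that order, was 1008 and 941 in control cells, 797 and 948 with RA, 502 and 654 with Ro, 107 and 82.2 with LPS, 168 and 230.3 with RA and LPS, and 177 and 237 with Ro and LPS. Manba, the beta-mannosidase of the last step of N-glycan breakdown, thus kept every LPS array under every array without LPS (-2.21 ± 0.25, adjusted p = 3.19e-05). The Man2b1 signal in BALB/c and BL6, in that order, was 8151 and 5913 in control cells, 9149 and 6067 with RA, 7009.6 and 4296 with Ro, 2646 and 1127 with LPS, 2834 and 1972 with RA and LPS, and 2241 and 834 with Ro and LPS. Man2b1, the alpha-mannosidase that acts before it, also showed no overlap (-1.88 ± 0.14, adjusted p = 1.61e-06). Sgsh, the heparan N-sulfatase, lay between 6.96 and 88.6 with LPS and ran from 109.9 to 321 (median 195) without it. The Sgsh signal was under background on 2 of the 6 LPS arrays, both of BL6, and its change was -1.95 ± 0.20, adjusted p = 1.52e-05.

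Gm2a, the activator that presents ganglioside GM2 to hexosaminidase A, fell without overlap of the groups (-1.55 ± 0.25, adjusted p = 0.00037). The Gm2a signal in BALB/c and BL6, in that order, was 9182 and 8762 in control cells, 8323 and 7484 with RA, 8615 and 7423 with Ro, 3870.5 and 4432 with LPS, 4650.5 and 3307 with RA and LPS, and 1025 and 1816 with Ro and LPS. The lowest of these were the 2 arrays with Ro and LPS together. Hexa, the alpha subunit of that hexosaminidase, fell with it (-1.25 ± 0.15, adjusted p = 5.82e-05), and its lowest arrays were the same 2 at 1694 and 1691. Lipa, the acid lipase that frees cholesterol from its esters, fell by 1.22 ± 0.15, and the acid ceramidase Asah1 by 0.87 ± 0.10. Psap, the precursor of the saposins, had a change of only -0.17 ± 0.06, adjusted p = 0.043. It was the member whose direction turned with the scaling, at 0.30 (not past the threshold) when arrays were set to a common median. Its call was also lost without the filter, without the intensity trend, without the strain block, within either strain and in 10 of 12 runs with 1 array left out.

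The sulfatases other than Sgsh fell by less. The change was -1.33 ± 0.15 for Arsb, which acts on dermatan sulfate, -0.74 ± 0.16 for Ids, which acts on heparan and dermatan sulfate, and -0.62 ± 0.13 for Arsa, which acts on sulfatide. Fuca1, the alpha-fucosidase, had -0.63 ± 0.13. Ppt1, which removes palmitate from proteins, fell by 0.79 ± 0.12, and the peptidase Tpp1 by 0.63 ± 0.09. Each of these 6 genes was lower with LPS in 6 of 6 pairs. The calls of Fuca1 and Tpp1 were lost at a common median.

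Acp5, the tartrate-resistant acid phosphatase of osteoclasts and some macrophages, rose most. The Acp5 signal in BALB/c and BL6, in that order, was 984 and 1364 in control cells, 1700.5 and 3045 with RA, 59.8 and 51.5 with Ro, 8005 and 4095 with LPS, 10999 and 7888 with RA and LPS, and 1859 and 590.3 with Ro and LPS. The LPS array exceeded its partner in 6 of 6 pairs, but the groups overlapped, the lowest LPS arrays being those with Ro. The rise was 2.74 ± 0.36 (6.67-fold, adjusted p = 8.68e-05). Acp2, the other lysosomal acid phosphatase, had 716 and 544 in control cells and 2141 and 1759.5 with LPS (BALB/c, BL6). Its rise over all 6 pairs was 1.36 ± 0.18, adjusted p = 9.06e-05. The second probe set of Acp2 rose as well (1.07 ± 0.17), while the third and dimmest had 0.01 ± 0.24 (limma adjusted p = 0.965).

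The Gla signal in BALB/c and BL6, in that order, was 559 and 989 in control cells, 965 and 1475 with RA, 169 and 402 with Ro, 2658 and 3930.2 with LPS, 3915 and 2853 with RA and LPS, and 694 and 676 with Ro and LPS. Gla, the alpha-galactosidase whose loss causes Fabry disease, rose in every pair (1.63 ± 0.21, adjusted p = 6.57e-05). Neu1, the sialidase, rose by 0.81 ± 0.12, adjusted p = 0.000225. Npc2, the soluble carrier that hands cholesterol to NPC1, rose by 0.35 ± 0.08 on its brightest probe set (adjusted p = 0.00291), and its groups did not overlap. Its 6 LPS arrays ran from 12846 to 14335 (median 13603) and the 6 arrays without LPS from 8371 to 12053 (median 11251). The other probe sets of Npc2 rose by 0.54 ± 0.07, 0.54 ± 0.14 and 1.09 ± 0.18. None of the membrane protein genes passed on its brightest probe set. Mcoln1, the calcium channel of the lysosome, had 0.38 ± 0.15, adjusted p = 0.0508, and the other 6 lay between -0.34 for Npc1 and 0.16 for Cln3.

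**Figure D2:**
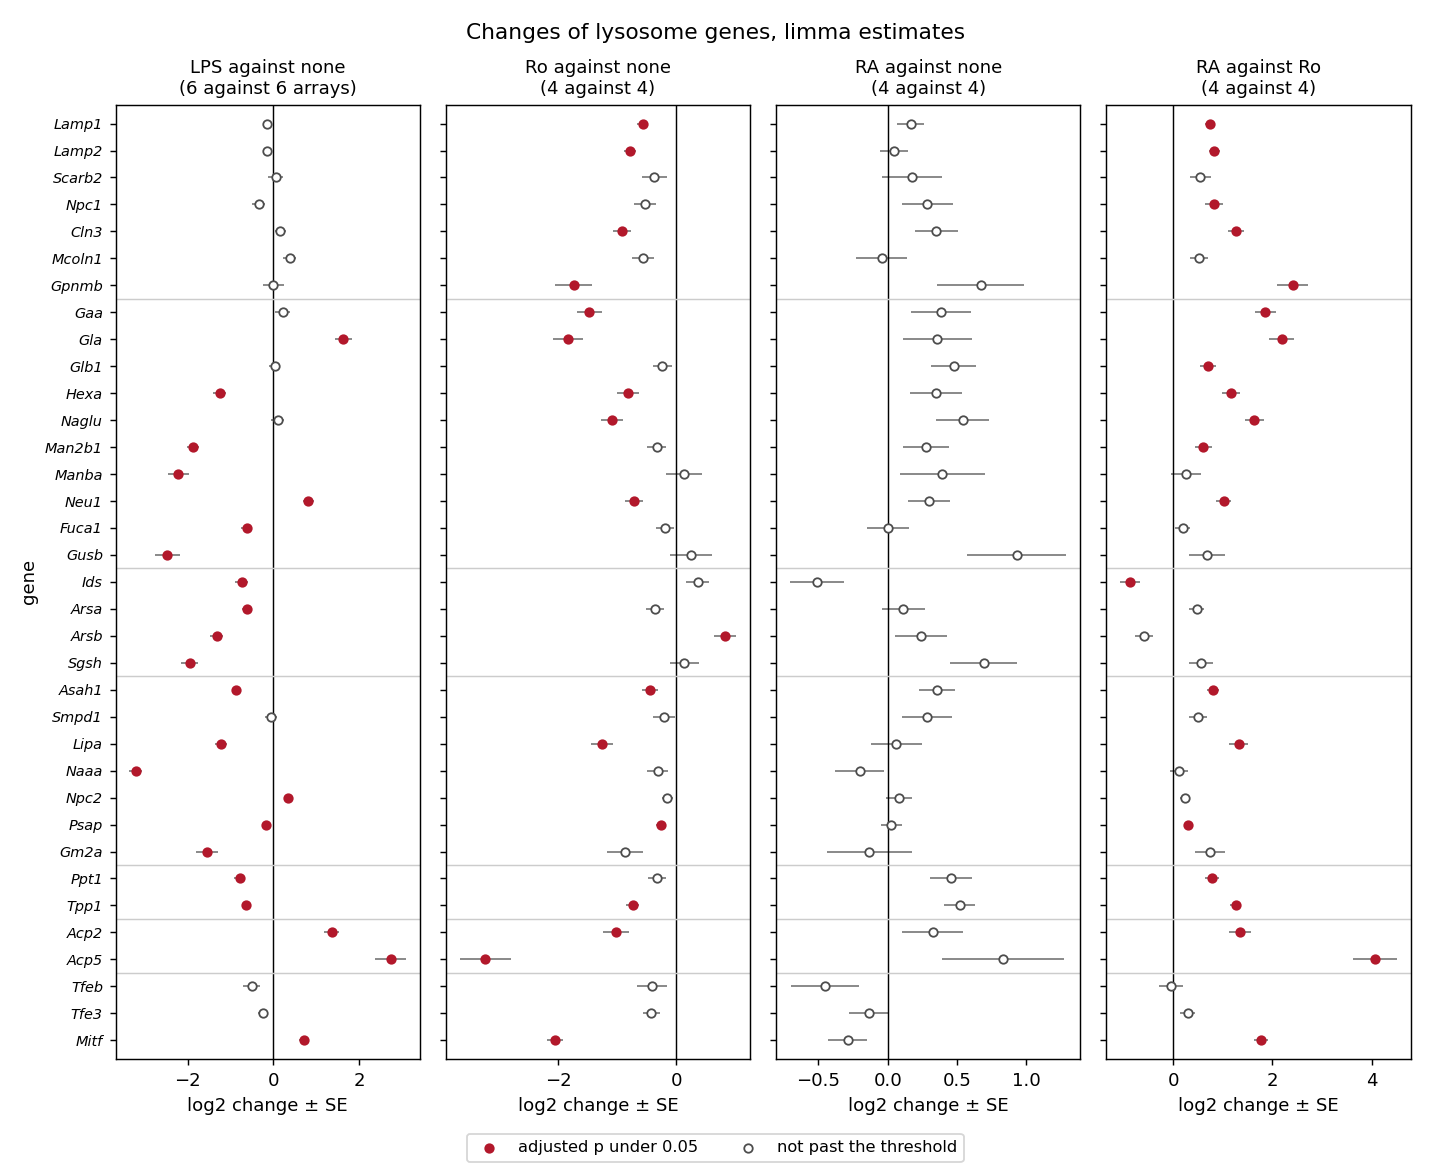
Log2 change of each member, with the standard error as a bar, for LPS against no LPS (6 arrays against 6), Ro and RA against no retinoid and RA against Ro (4 against 4 each), with a scale of its own in each panel. Filled points mark members past the adjusted threshold of 0.05. LPS points lie on both sides of 0, Ro points past the threshold lie below 0 except Arsb, and no RA point is filled.

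Markers of other cells moved with LPS as well. All 9 granulocyte markers tested fell, and their summed signal was 539 to 6119 with LPS and 9962 to 54305 without. Of 12 macrophage and monocyte markers 2 rose and 7 fell, with sums of 12943 to 55484 against 43972 to 67234, and of 14 dendritic cell markers 3 rose and 5 fell. Of 4 osteoclast markers tested Ocstamp and Oscar rose and Nfatc1 fell, with sums of 683 to 2701 against 753 to 2039.8, and Calcr was below background on every array. Of 3 eosinophil markers Epx and Siglecf fell, with sums of 21.7 to 321 against 275 to 1601, and of 3 mast cell and basophil markers Cpa3 fell. Of 2 B cell markers Cd79b rose. None of the granulocyte, macrophage or dendritic cell markers on the array was below background everywhere. In a bulk culture fewer cells of a type and less RNA per cell cannot be told apart, and the part of these markers in the members' rises and falls was not tested.

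The second comparison asked what the receptor antagonist changed, over 4 arrays with Ro and 4 without retinoid. Ro lowered 16 members and raised 1, against 6.6% of all tested genes that fell and 7.46% that rose. These were 45.7% and 2.86% of the members, whose median change was -0.45 beside 0.05 for all genes. Each of the 16 was lower with Ro in 4 of 4 pairs of arrays that shared strain and LPS. The falls reached every role but the sulfatases, with 4 of 7 membrane proteins, 5 of 10 glycosidases, 3 of 7 genes of lipid breakdown, the peptidase Tpp1, both acid phosphatases and Mitf. At the deposited scaling 14 members fell and 1 rose, against 4.36% and 14.1% of all genes, and 76.4% of all genes called were higher, against 53.1% at quantile normalization. Within 1 strain alone, with 2 arrays against 2, 5 members passed in BALB/c and 2 in BL6. Without the BALB/c array with LPS alone 12 members passed, and the calls of Acp2, Arsb, Asah1, Hexa and Psap were lost.

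Of the 3 transcription factors Mitf was the one that passed with Ro. The Mitf signal in BALB/c and BL6, in that order, was 782 and 1554 in control cells, 572 and 1148 with RA, 199.6 and 335 with Ro, 1423 and 2099 with LPS, 1154 and 2122 with RA and LPS, and 256 and 609 with Ro and LPS. All 4 Ro arrays lay below the 4 without retinoid, and Mitf fell by 2.05 ± 0.14 (4.15-fold, adjusted p = 2.48e-05). With LPS it rose by 0.72 ± 0.12, adjusted p = 0.00036, a call that was lost at the deposited scaling and without the strain block. Tfeb, the best known regulator of lysosome genes, had changes that did not pass, at -0.41 ± 0.25, adjusted p = 0.28 with Ro and -0.51 ± 0.20, adjusted p = 0.0543 with LPS. Its signals were 316 and 465 in control cells, 363 and 243 with RA and 333 and 309.5 with Ro (BALB/c, BL6), and 268 and 343, 168 and 239.9 and 289 and 133 in the same order with LPS. Those values overlapped in every comparison.

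Tfe3 had 746 and 665 in control cells, 532 and 610.3 with RA, 486 and 464 with Ro, 599 and 445 with LPS, 497 and 559.9 with RA and LPS, and 456 and 380.3 with Ro and LPS. It was lower in 4 of 4 pairs with Ro (-0.43 ± 0.15, adjusted p = 0.0733) and in 6 of 6 with LPS (-0.24 ± 0.12, adjusted p = 0.108), without passing the threshold. At the deposited scaling Tfeb and Tfe3 did pass for LPS. Transcript levels do not report where these proteins are in the cell.

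Acp5 had the largest fall with Ro, from 984 and 1364 to 59.8 and 51.5 (BALB/c, BL6) without LPS and from 8005 and 4095 to 1859 and 590.3 with it. The averaged change was -3.23 ± 0.44, adjusted p = 0.00129. Acp2 fell by 1.02 ± 0.22 (adjusted p = 0.0125). Both phosphatases thus moved one way with LPS and the other with Ro. Gla did the same, with a fall of 1.83 ± 0.25 (3.56-fold, adjusted p = 0.00133), and so did Neu1 with -0.72 ± 0.15, adjusted p = 0.0108, a call that was lost at a common median. Of the 6 members that rose with LPS, 5 fell with Ro and Npc2 did not pass on its brightest probe set (-0.15 ± 0.09). The second Npc2 probe set did not pass either (-0.20 ± 0.09). The dimmer ones did fall with Ro, at -0.81 ± 0.17 (limma adjusted p = 0.0119) and -0.85 ± 0.21 (adjusted p = 0.0276). Among all tested genes 6.6% fell with Ro, and the share among only those that rose with LPS is not given here.

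The Gpnmb signal in BALB/c and BL6, in that order, was 7798 and 8267 in control cells, 11590.3 and 13914 with RA, 1231 and 4309 with Ro, 7408 and 8237 with LPS, 11872 and 13258 with RA and LPS, and 1178 and 4905 with Ro and LPS. Gpnmb, a glycoprotein of macrophage lysosomes and melanosomes, was thus low on all 4 Ro arrays and lowest in BALB/c (-1.74 ± 0.31, adjusted p = 0.00537). The Lamp1 signal in BALB/c and BL6, in that order, was 11658 and 9901 in control cells, 12008 and 11373 with RA, 6255 and 7235 with Ro, 9685 and 8451 with LPS, 10769 and 10246 with RA and LPS, and 6151 and 6948 with Ro and LPS. Lamp1, one of the main proteins of the lysosomal membrane, fell with no overlap (-0.57 ± 0.10, adjusted p = 0.00421). Lamp2, its partner in the membrane and in autophagy, fell by 0.79 ± 0.10, and Cln3, the membrane protein lost in a juvenile form of Batten disease, by 0.92 ± 0.15. The 3 membrane proteins that did not pass were Mcoln1 (-0.56 ± 0.18), Npc1, the membrane partner of NPC2 (-0.54 ± 0.18), and Scarb2, which carries glucocerebrosidase (-0.37 ± 0.22).

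The Gaa signal in BALB/c and BL6, in that order, was 569.6 and 382 in control cells, 616 and 628 with RA, 174 and 129.7 with Ro, 732 and 385 with LPS, 914 and 519.8 with RA and LPS, and 156 and 232 with Ro and LPS. Gaa, the acid alpha-glucosidase that degrades glycogen, was at or below 232 on each Ro array and at or above 382 on every other array (-1.47 ± 0.22, adjusted p = 0.00188). Naglu, an enzyme of heparan sulfate breakdown, fell by 1.09 ± 0.19 (adjusted p = 0.00439) and its Ro arrays did not overlap with the controls. Hexa fell by 0.82 ± 0.19. The other 5 glycosidases did not pass and lay between -0.34 for Man2b1 and 0.25 for Gusb.

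The Lipa signal in BALB/c and BL6, in that order, was 3735 and 6313 in control cells, 3047 and 7254 with RA, 2110.0 and 2709.7 with Ro, 1884 and 2582 with LPS, 1642 and 3744 with RA and LPS, and 589 and 1001 with Ro and LPS. Lipa fell with Ro in each of the 4 pairs (-1.26 ± 0.18, adjusted p = 0.00184), and the lowest signals were those with Ro and LPS together. Tpp1 fell by 0.74 ± 0.11 (adjusted p = 0.00216), from 3975 and 3268 in control cells to 2198 and 1878 with Ro (BALB/c, BL6). Asah1 and Psap fell by 0.45 ± 0.13 and 0.27 ± 0.08, and these 2 calls were lost at both other scalings and in 9 and 8 of 12 runs with 1 array left out. Members that fell with LPS were not bound to fall with Ro. Of those 16, 5 also fell with Ro, 10 did not pass and 1 rose. The same split of all genes that fell with LPS is not given here.

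The member that rose was Arsb. The Arsb signal in BALB/c and BL6, in that order, was 409.6 and 329.8 in control cells, 532 and 293 with RA, 822 and 357 with Ro, 137 and 87.4 with LPS, 192 and 114 with RA and LPS, and 392 and 164 with Ro and LPS. Arsb was higher with Ro in 4 of 4 pairs, and LPS lowered it in each retinoid condition. The rise was 0.83 ± 0.19, adjusted p = 0.0159, and it was not past the threshold without the strain block. The other sulfatases lay between -0.37 for Arsa and 0.36 for Ids.

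**Figure D3:**
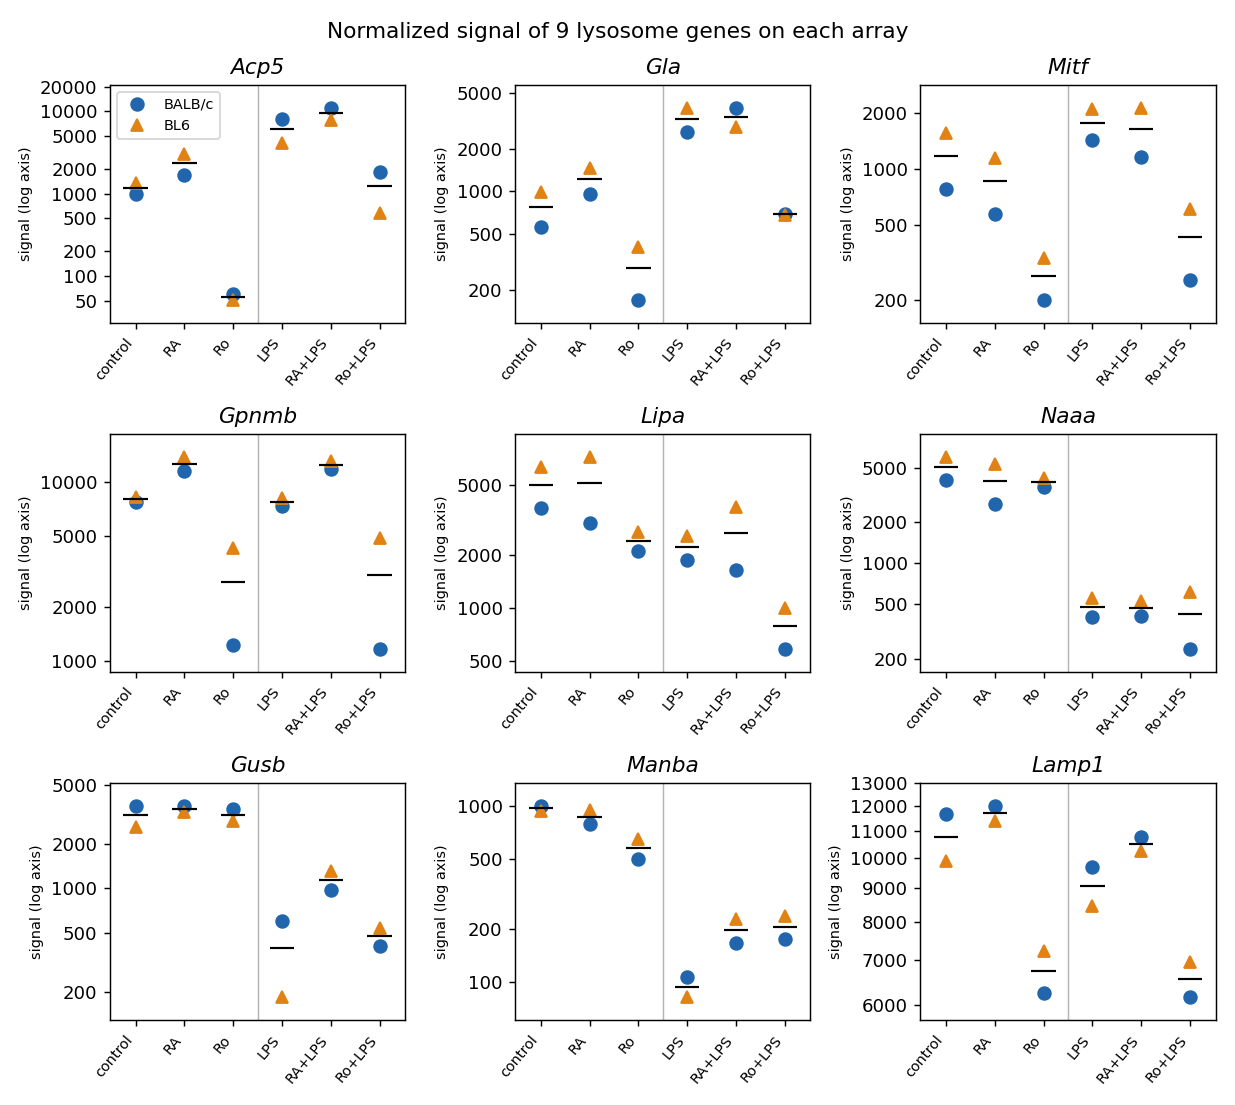
Quantile-normalized signal of 9 members on the 12 arrays, on a log axis, with BALB/c as circles, BL6 as triangles and the mean of both as a line in each of the 6 conditions. Mitf, Lamp1 and Gpnmb are lower with Ro than in the other conditions with the same LPS state and strain, and Naaa and Manba are low with LPS whatever the retinoid.

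Macrophage and monocyte markers moved in the same direction with Ro. Of 12 tested, 6 fell (Ccr2, Cd14, Marco, Mertk, Mrc1 and Trem2) and none rose, and the summed signal was 12943 to 44972 with Ro and 37363 to 54354 without retinoid, which overlap. Tested apart, 2 of the 12 fell with Ro in cultures without LPS (Cd14 and Trem2, median change -0.45). In cultures with LPS 8 fell (median -2.11), and none rose in either state. The interaction of Ro with LPS was negative for C1qa and C1qc. Of 14 dendritic cell markers 3 rose (Ciita, Irf4 and Zbtb46) and 1 fell, with sums of 46114 to 60261 against 38337 to 43494, which do not overlap. Of 4 osteoclast markers tested 1 fell and none rose, with sums of 683 to 1647 against 2026 to 2701, and the defining marker Calcr was below background on every array. The osteoclast sums with RA, 753 to 1166, also lay below those without retinoid, although no osteoclast marker passed with RA. The granulocyte marker Mmp8 fell, as 1 of 9. Of 3 eosinophil markers Siglecf fell, with sums of 21.7 to 1601 against 54.2 to 998. Of 3 mast cell and basophil markers Cpa3 rose, with sums of 82 to 2020 against 55 to 254. Neither of the 2 B cell markers passed. The part of these markers in the fall of the lysosomal genes was not tested.

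RA against no retinoid was the third comparison. By limma no member passed, beside 0% of all tested genes that rose and 0.0321% (4 genes) that fell. At an unadjusted p under 0.05 there were 9 members and 1296 genes. The members' median change was 0.28 beside 0.03 for all genes. The smallest p-values belonged to Tpp1 (0.52 ± 0.11, adjusted p = 0.125) and Ppt1 (0.46 ± 0.15, adjusted p = 0.342). For Tpp1 the RA arrays had 5133 and 5067 without LPS and 3782 and 2775 with it (BALB/c, BL6), against 3975 and 3268 and 2489 and 1978 without retinoid.

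RA and Ro were then set against each other, 4 arrays against 4. These 3 retinoid comparisons share arrays, so their values are given side by side and no agreement between them is read. With RA, 20 members were higher than with Ro and 1 was lower, against 8.53% of all genes higher and 8.87% lower. The members' median was 0.74 beside -0.02 for all genes. At the deposited scaling 16 members were higher and 2 lower, against 5.34% and 14.4% of all genes, with 27% of all genes called being higher, against 49% at quantile normalization. By role, 5 of 7 membrane proteins, 7 of 10 glycosidases, 3 of 7 genes of lipid breakdown, Ppt1, Tpp1, both acid phosphatases and Mitf were higher with RA, and the sulfatase Ids was lower. Of 12 macrophage and monocyte markers 8 were higher with RA, with sums of 43164 to 67234 against 12943 to 44972, and of 14 dendritic cell markers 6 were lower and 1 higher, with sums of 29552 to 38668 against 46114 to 60261. Of 9 granulocyte markers Mmp8 was higher with RA, and of 3 eosinophil markers Siglecf was higher and Prg2 lower. Of 3 mast cell and basophil markers Cpa3 and Mcpt8 were lower, and of 4 osteoclast markers Ocstamp was lower. The part of all these markers in the difference was not tested.

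Acp5 differed most, with 5908 ± 4310.4 (SD, n = 4) against 640.2 ± 851 (SD, n = 4), a change of 4.07 ± 0.44, adjusted p = 0.000168 (16.8-fold on the log2(signal + 16) scale). Its arrays overlapped between the groups, while each of the 4 pairs was higher with RA. Gpnmb followed with 2.41 ± 0.31 and Gla with 2.19 ± 0.25, adjusted p = 0.000244, and neither had overlapping arrays. Tpp1 and Mitf had the smallest p-values, at 1.26 ± 0.11, adjusted p = 6.17e-05 and 1.77 ± 0.14, adjusted p = 3.1e-05. Ids, the iduronate sulfatase, had 653 and 947 with RA and 1379.7 and 1408 with Ro (BALB/c, BL6), and 372 and 750.1 against 949 and 1101 when LPS was added. Its change of -0.87 ± 0.20, adjusted p = 0.0113 was lower with RA in 4 of 4 pairs.

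The promoters shown above can be set beside these values. Of the 9 members with CACGTG in the promoter, 6 were higher with RA than with Ro and 5 fell with Ro, namely Cln3, Gaa, Gla, Lamp1 and Naglu. Of the 24 tested members whose promoter held no CACGTG in this window, 12 were higher with RA than with Ro and 10 fell with Ro. Among all tested genes 8.53% were higher with RA than with Ro and 6.6% fell with Ro. Whether members with and without the motif differ was not tested. Cln3 and Gla, with the longer core, fell with Ro, and Mcoln1 had -0.56 ± 0.18, adjusted p = 0.0622.

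**Figure D4:**
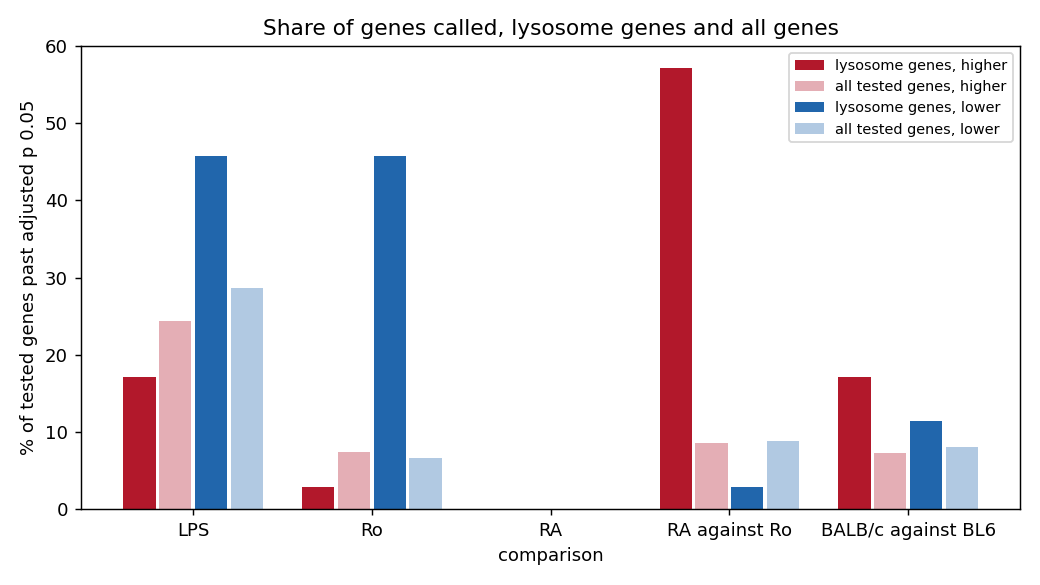
Share of the 35 members and of all 12442 tested genes past the adjusted threshold, in percent, higher and lower, for each comparison. With Ro 45.7% of the members and 6.6% of all genes fell, and with LPS the shares were 45.7% and 28.7%.

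The antagonist was also tested without LPS and with it, 2 arrays against 2 in each case with the spread pooled over 12 arrays. Without LPS 11 members fell and none rose, against 2.33% of all genes that fell and 1.55% that rose. The count of members was 2 at the deposited scaling, 3 at a common median or without the intensity trend, and 1 without the strain block. With LPS 16 fell and 3 rose, against 9.07% and 11.1%. The 3 rises were Manba, Ids and Arsb. At the deposited scaling 55.1% of the genes called without LPS were higher, against 40% at quantile normalization, and 74.1% against 55% with LPS. Leaving out 1 array moved these counts. The count without LPS dropped to 2 when either control array or either Ro array was left out. The count with LPS dropped from 19 to 11 without the BALB/c LPS array, to 12 without the BL6 LPS array and to 10 without the BALB/c array with Ro and LPS.

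The change with Ro differed between cultures with and without LPS for 2 members, both by a positive interaction, against 0.53% of all genes with a positive and 0.884% with a negative interaction. Manba had a change with Ro of -0.75 ± 0.23, adjusted p = 0.115 without LPS and of 1.01 ± 0.23, adjusted p = 0.0155 with LPS. The difference was 1.76 ± 0.33, adjusted p = 0.0381. Scarb2 had -0.96 ± 0.17, adjusted p = 0.0143 without LPS and 0.21 ± 0.17, adjusted p = 0.41 with LPS, a difference of 1.16 ± 0.24, adjusted p = 0.048. The Scarb2 signal in BALB/c and BL6, in that order, was 2453 and 1750.3 in control cells, 2620.4 and 1749.6 with RA, 1287 and 872 with Ro, 2211 and 1070.4 with LPS, 2281 and 1589.9 with RA and LPS, and 2285 and 1386 with Ro and LPS. The Ro arrays of Scarb2 were the lowest of their strain without LPS, and with LPS they lay above the LPS array without retinoid. Neither interaction passed at the deposited scaling or without the strain block, and Scarb2 did not at a common median. Leaving out 1 array kept both without the BALB/c LPS array or either array with RA and LPS, and lost both without any other array.

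For the interaction of RA with LPS no member passed by limma, beside 0% of all genes in either direction, with 4 members and 910 genes at an unadjusted p under 0.05. Manba (1.11 ± 0.33, adjusted p = 0.549) and Smpd1, the acid sphingomyelinase (0.83 ± 0.27, adjusted p = 0.575), had the smallest p-values. For the interaction of strain with LPS no member passed, beside 0.00804% of all genes in the positive and 0.0161% in the negative direction, with 2 members and 1094 genes at an unadjusted p under 0.05. Gla (0.84 ± 0.34, adjusted p = 0.541) and Acp5 (1.40 ± 0.61, adjusted p = 0.559) came closest.

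The strains were compared over 6 arrays each. In BALB/c 6 members were higher and 4 lower than in BL6, against 7.25% of all genes higher and 8.12% lower. At the deposited scaling 9 were higher and 4 lower, against 11.4% and 3.87% of all genes, and 74.7% of the genes called were higher, against 47.2%. Glb1, the beta-galactosidase, ran from 761 to 1771 (median 1227) in BALB/c and from 464 to 891 (median 585) in BL6. It was higher in BALB/c in each of the 6 conditions (0.99 ± 0.13, adjusted p = 0.000868). Man2b1 was also higher (0.82 ± 0.14, adjusted p = 0.00279), as were Sgsh, Arsb, Scarb2 and Tpp1, with values from 0.32 to 1.00. The calls of Scarb2 and Tpp1 were lost with the mean of all kept probe sets and in several runs with 1 array left out. That of Tpp1 was also lost at a common median, without the filter and without the intensity trend. Some members had only another probe set past the threshold, such as Gpnmb (-1.89 ± 0.16, adjusted p = 1.99e-05) and Gm2a (1.37 ± 0.27, adjusted p = 0.00578).

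Mitf and Npc1 were lower in BALB/c, at -0.88 ± 0.12, adjusted p = 0.000783 and -0.89 ± 0.15, adjusted p = 0.00289. Lipa (-0.79 ± 0.15) and Naaa (-0.64 ± 0.15) were lower too. The call of Lipa was lost with the mean of all kept probe sets. Its other probe sets had 0.14 ± 0.18 and -0.83 ± 0.16. Npc1, which exports cholesterol from the lysosome, ran from 265 to 431 (median 368) in BALB/c and from 357 to 1279.5 (median 674) in BL6.

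**Figure D5:**
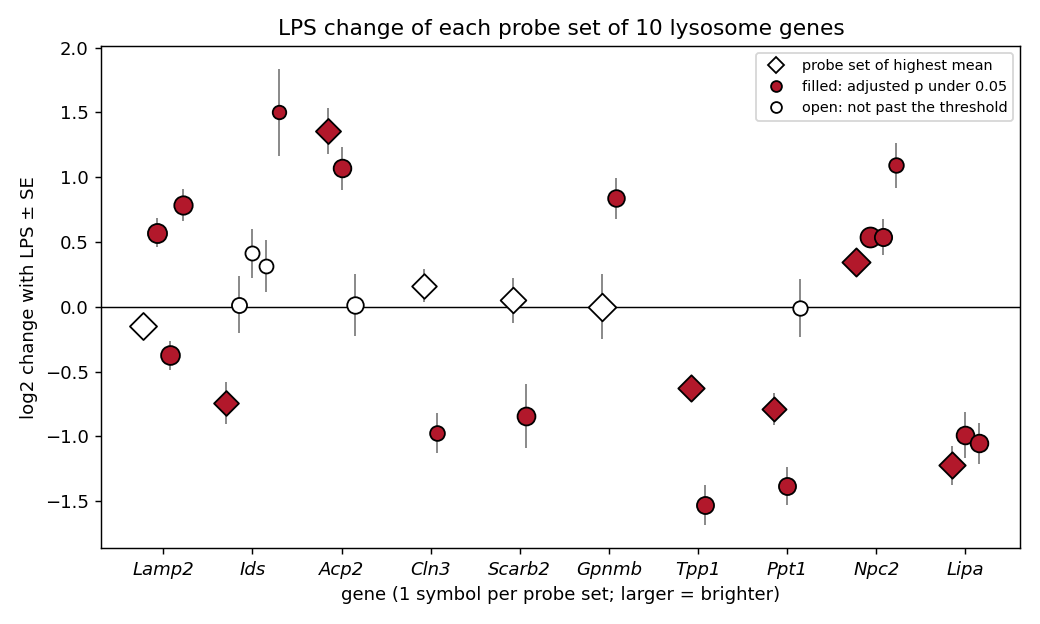
Log2 change with LPS of every kept probe set of 10 members, 1 symbol per probe set, larger where brighter, with the standard error as a bar. Diamonds mark the probe set of highest mean and filled symbols an adjusted p under 0.05. Lamp2 and Ids hold probe sets past the threshold on both sides of 0.

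The members had 80 probe sets in all, of which 75 passed the filter, and 24 members had several (64 probe sets). With p-values adjusted over all kept probe sets, 2 members had, for LPS, probe sets called in opposite directions. The brightest probe set of Lamp2, which stands for the gene, had -0.15 ± 0.08, while others had 0.57 ± 0.11, 0.78 ± 0.12 and -0.37 ± 0.11. Lamp2 makes splice forms with different ends, and what each probe set reads was not tested. The brightest probe set of Ids had -0.74 ± 0.16 and the dimmest, with a mean of 27.3, rose (adjusted p = 0.00295). Tpp1 had probe sets called in opposite directions for strain, at 0.32 ± 0.09 and -0.52 ± 0.16, while both fell with LPS. For Ro no member had probe sets called in opposite directions. Among members called for LPS, some had a dimmer probe set that did not pass, such as Acp2 (0.01 ± 0.24), Neu1 (-0.21 ± 0.18) and Ppt1 (-0.01 ± 0.22).

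Some members that did not pass for LPS had a second probe set that did. Gpnmb had 0.00 ± 0.25 on the brightest and 0.84 ± 0.16 on the other, and Scarb2 had 0.05 ± 0.18 and -0.84 ± 0.25. The dim second probe set of Cln3 had -0.97 ± 0.16, and the second of Mcoln1 had 0.49 ± 0.15 (adjusted p = 0.0149). The statement that no membrane protein passed for LPS therefore holds for the brightest probe sets, and not for other probe sets of Lamp2, Gpnmb, Scarb2, Cln3 and Mcoln1.

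The other genes of the lysosome were followed in 6 lists beside the 35 members. The shares to read them against are those of all tested genes, of which 7.46% rose and 6.6% fell with Ro, 24.4% rose and 28.7% fell with LPS, and 8.53% were higher with RA than with Ro. Of 21 further lysosomal enzymes and membrane proteins tested, 10 fell with Ro (47.6%) and none rose (median change -0.45, against 0.05 for all genes), and 12 were higher with RA than with Ro (57.1%). Cd68, the macrophage sialomucin of the lysosomal membrane, had -1.75 ± 0.25, adjusted p = 0.00181 with Ro, and the glycoprotein Creg1 -0.98 ± 0.15, adjusted p = 0.0021. With LPS 3 of the 21 rose (14.3%) and 4 fell (19%; median -0.08, against -0.01 for all genes), led by Slc11a1, the metal transporter of phagosomes (2.37 ± 0.23, adjusted p = 1e-05), and the phospholipase Pla2g15 (-1.30 ± 0.18, adjusted p = 0.000122). The other calls with LPS were Clcn7 and Laptm4b, which rose, and Ctns, Dnase2a and Laptm5, which fell. Membrane proteins such as Slc11a1 are among these. The lack of LPS calls thus holds only for the brightest probe sets of the 7 membrane proteins of the set.

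The 14 cathepsins and legumain had a median of -0.49 with Ro and -0.09 with LPS. With Ro 5 fell (35.7%) and none rose, with Ctsd at -0.87 ± 0.10, adjusted p = 0.000502 and Ctsb at -0.56 ± 0.08, adjusted p = 0.00154. With LPS 2 rose (14.3%) and 3 fell (21.4%), both shares below those of all genes, among them Ctsk (1.34 ± 0.22) and Ctse (-1.94 ± 0.41). Of 17 subunits of the vacuolar proton pump, which acidifies the lysosome, 6 fell with Ro (35.3%) and none rose (median -0.40). Tcirg1, a membrane subunit, had -1.72 ± 0.15, adjusted p = 0.000153, and Atp6v0d2, a subunit of osteoclasts and macrophages, -2.62 ± 0.30, adjusted p = 0.000593. With LPS 3 subunits rose (17.6%) and 7 fell (41.2%; median -0.14), and 8 were higher with RA than with Ro (47.1%).

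Of 21 genes that deliver enzymes to the lysosome, none fell with Ro and 2 rose (Gga2 at 1.29 ± 0.28 and Ap3b1 at 0.44 ± 0.12), a share of 9.52% that lies near that of all genes. With LPS 2 of them rose (9.52%) and 7 fell (33.3%). Their medians were -0.03 with Ro and -0.06 with LPS. The small GTPase Rab7 had -1.34 ± 0.09, adjusted p = 1.31e-06 with LPS and the adaptor subunit Ap1b1 -1.63 ± 0.17, adjusted p = 1.52e-05. Of 20 genes through which mTORC1 and calcineurin control TFEB, 6 fell (30%) and 2 rose (10%) with Ro (median -0.10), with Fnip2, a partner of folliculin, at -1.41 ± 0.24, adjusted p = 0.00436 and Lamtor3 at -0.70 ± 0.12, adjusted p = 0.00506. With LPS 7 of the 20 fell (35%) and 1 rose (5%; median -0.17), and Lamtor4 had -2.05 ± 0.11, adjusted p = 2.53e-07. Of 21 autophagy genes 7 rose (33.3%) and 2 fell (9.52%) with LPS (median 0.27), led by the cargo receptor Sqstm1 (1.46 ± 0.12, adjusted p = 3.66e-06) and by Wipi2 (1.33 ± 0.15, adjusted p = 2.63e-05). With Ro 3 autophagy genes fell (14.3%) and 2 rose (9.52%; median -0.08), Wipi1 having -1.67 ± 0.29, adjusted p = 0.00486 and Uvrag 0.57 ± 0.13, adjusted p = 0.0159.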

How the data were processed

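RNA of 12 cultures was measured on 12 Affymetrix arrays. What the authors deposited are linear intensities per probe set, made with MAS5 per the submitters' processing notes, with no version or target given there. Detection calls were not used. Of 45101 probe sets, 64 were controls, 34945 named 1 gene in the platform annotation, 932 several and 9160 none, and only those of 1 gene were used. Of these, 34741 had a gene identifier in the reference list.

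The intensities were quantile-normalized here, because array medians differed and a shift of all genes would otherwise mix with the calls. The deposited scaling is an alternative. After log2(signal + 16), a probe set was kept if above its array's median on 2 or more of 12 arrays, and the kept probe set of highest mean stood for a gene. limma 3.58.1 in R 4.3.3 (lmFit, eBayes with intensity trend, Benjamini-Hochberg, threshold 0.05) fitted retinoid, LPS and strain, or the 6 conditions and strain, or the first with a strain by LPS term. Tables used Python 3.11.15 with pandas 2.3.3 and numpy 2.4.6, and figures matplotlib 3.10.9. Background is a signal of 29.25. The number of arrays limits the precision.

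Strain is a block, since replicate 1 is BALB/c and replicate 2 BL6 in every condition. Strain differences of any 2 conditions correlated across genes with r from 0.308 to 0.706 over 15 pairs. Arrays correlated with each other at 0.773 to 0.973.

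On simulated data with 12442 genes the LPS test recovered 69 of 100 genes changed by 1 log2 unit and 97 of 100 changed by 2, with 7 false calls, and the Ro test 56 and 86, with 8 false calls.

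Genes named with values were the 6 largest rises and falls with LPS and with Ro among members past the threshold with 1 direction in both strains, up to 4 for other comparisons, the factors Tfeb, Tfe3 and Mitf, and up to 2 of each other list. Other members given values were chosen after these were seen. The members and all lists were chosen with earlier results of these data known. Alternatives were the scaling, the added value, the filter, the trend, the block, the mean over probe sets, single strains, an averaged contrast and leaving out each array.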

Additional observations from a re-analysis of the deposited data

Results flagged for a closer look

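For 2 members the change with Ro differed between cultures without and with LPS, by the interaction test over all genes (limma). Manba, the beta-mannosidase, had a difference of 1.76 ± 0.33 (adjusted p = 0.0381): its change with Ro was -0.75 ± 0.23 without LPS (lower in 2 of 2 strains) and 1.01 ± 0.23 with LPS (higher in 2 of 2). Its signal with LPS alone was 107 in BALB/c and 82.2 in BL6, the lowest of the 6 conditions. Scarb2, the receptor that carries glucocerebrosidase, had a difference of 1.16 ± 0.24 (adjusted p = 0.048), with -0.96 ± 0.17 without LPS and 0.21 ± 0.17 with LPS. Both values rest on 2 arrays a condition. Neither interaction passed at the deposited scaling, without the intensity trend or without the strain block.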

How the results depend on the processing

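The counts of members past the threshold for LPS (22), RA against Ro (21) and strain (10) stayed within 1.5 times under every alternative run, and with 1 array left out they ran from 21 to 23, 19 to 22 and 8 to 10. The count for Ro (17) ran from 12 to 17 with 1 array left out, and was 5 within BALB/c and 2 within BL6. The comparisons of 2 arrays with 2 moved more. For Ro without LPS (11) the count was 2 at the deposited scaling, 3 at a common median, 3 without the intensity trend and from 2 to 12 with 1 array left out. For Ro with LPS (19) it ran from 10 to 19. For the interaction of Ro with LPS (2) it was 0 at the deposited scaling or without the trend, 1 with 1 added in place of 16, 1 without the filter, 1 with the mean of all kept probe sets, and 0 to 2 with 1 array left out. For RA and for the interactions of RA or strain with LPS it was 0 throughout the arrays left out. Without the strain block, which pairs the replicate numbers, the counts were 20 for LPS, 14 for Ro, 0 for RA, 17 for RA against Ro, 1 for Ro without LPS, 10 for Ro with LPS, 0 for the interaction of Ro with LPS and 0 for that of RA with LPS. Single genes turned direction for LPS in 3 cases. With the mean of all kept probe sets Cln3 had -0.40 and Ids 0.30, and both of these passed the threshold. That mean takes in the probe sets with other directions. Psap had 0.30 at a common median, and the cause of that turn was not tested. For Ro, no member past the threshold turned direction under any alternative run. Probe sets near background limit what can be read of Sgsh in cultures with LPS and of the dimmer Ids probe sets.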
